A study of Mus musculus with 15 samples.

Results

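Withdrawal of JQ1 was examined by setting testes that had recovered from dosing directly against testes taken at the end of it, with no step through untreated mice. Of the 15 droplet single-cell RNA libraries of the series, 6 were compared, and they held 38435 of the 72369 cells that passed the filters. The 3 treatment libraries (T) came from DBA/2J males that received JQ1 intraperitoneally at 50 mg/kg each day for 3 wk and were 10 wk old at collection. The 3 recovery libraries (R) came from DBA/2J males given the same course of JQ1 and then left undosed for 6 wk, which made them 16 wk old. Each library was made from a dissociated testis of a different mouse, and no group carried an engineered allele. The vehicle groups of the same ages (VC-T and VC-R, cyclodextrin with DMSO and no JQ1) supplied the map of stages and the change that accompanied the same 6 wk without the drug. The 3 untreated libraries (UC), from DBA/2J males 15 wk old that received neither JQ1 nor vehicle, entered the alternatives that use all libraries of the series. Withdrawal and the 6 wk of added age cannot be told apart from R against T alone. Cells entered with at least 500 genes, at least 1000 unique molecular identifiers (UMIs, each standing for 1 captured RNA molecule) and under 30% of UMIs from the mitochondrial genome.

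Spermatogenesis runs from diploid spermatogonia through meiotic prophase, in which pachytene spermatocytes pair and recombine their chromosomes, to round spermatids and then to elongating spermatids, which replace histones with transition proteins and protamines and fall silent in transcription. BRDT is the member of the bromodomain and extraterminal (BET) family of acetyl-histone readers that is found in the testis, and JQ1 occupies its acetyl-lysine pocket and those of other BET proteins. Mouse spermatogenesis needs several weeks from spermatogonium to released sperm, and germ cells of successive stages are found side by side in the same tubules.

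Genes of sperm chromatin packaging were among those that set the groups farthest apart, and Pim3 and Prnp were among the genes lower after withdrawal in pachytene cells, so the promoters of these 6 are shown. Each line gives the 120 bases before the transcription start from the RefSeq promoter table (mouse GRCm38.p6), 5′ to 3′ on the strand of the gene. Capitals in the first 4 mark TATA or the motif TGANGTCA, the kind of site bound by CREM, a transcription factor of spermatids, on either strand. TATATA holds 2 overlapping matches to TATA. Capitals in the last 2 mark each CG dinucleotide.
Prm1 (protamine 1, chr16:10796824-10796943, minus strand): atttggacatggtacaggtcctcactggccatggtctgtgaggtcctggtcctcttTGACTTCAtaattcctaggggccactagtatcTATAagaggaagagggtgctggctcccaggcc
Prm2 (protamine 2, chr16:10792106-10792225, minus strand): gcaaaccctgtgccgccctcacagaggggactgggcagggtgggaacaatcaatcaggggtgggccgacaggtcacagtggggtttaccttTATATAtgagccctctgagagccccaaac
Tnp1 (transition protein 1, chr1:73015900-73016019, minus strand): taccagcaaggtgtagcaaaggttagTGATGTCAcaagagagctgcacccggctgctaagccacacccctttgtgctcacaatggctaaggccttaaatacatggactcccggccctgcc
Tnp2 (transition protein 2, chr16:10788656-10788775, minus strand): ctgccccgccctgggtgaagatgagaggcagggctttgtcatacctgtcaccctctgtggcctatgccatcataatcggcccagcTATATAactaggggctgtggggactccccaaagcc
Pim3 (a serine/threonine kinase, chr15:88862074-88862193, plus strand): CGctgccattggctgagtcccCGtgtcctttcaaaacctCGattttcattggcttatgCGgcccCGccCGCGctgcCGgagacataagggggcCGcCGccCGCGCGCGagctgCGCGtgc
Prnp (the prion protein, chr2:131909808-131909927, plus strand): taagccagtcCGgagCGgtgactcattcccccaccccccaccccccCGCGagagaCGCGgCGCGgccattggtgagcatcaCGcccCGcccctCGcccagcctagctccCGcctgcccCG
TGANGTCA lay within these 120 bases of Prm1, 64 bases before the start, and of Tnp1, 94 bases before it, and 5.19% of the 27025 promoters in the table held it in a window of that length. TATA began within the last 40 bases before the start of Prm1, Prm2 and Tnp2, as it did in 8.0% of all promoters. The Pim3 promoter held 31 CG dinucleotides in 250 bases and that of Prnp held 17, against a median of 6 and quartiles of 2 and 16 over the table. These are matches of letters, and binding was not measured.

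The R libraries were larger than the T libraries. The R libraries held 9949 to 14221 cell barcodes and 40582759 to 98724982 UMIs, and the T libraries 3573 to 9567 barcodes and 9673587 to 27392194 UMIs. After the filters and the removal of the 5.4% of barcodes with the highest doublet scores, the R libraries kept 6649, 7308 and 12744 cells and the T libraries 5526, 3777 and 2431. An R and a T library shared between 5 and 24 barcodes, at most 0.426% of the smaller library. Stages were named from vehicle cells alone, and each R or T cell took the stage of its nearest vehicle cells. 1 vehicle library, VC-T 1, stood apart from the other vehicle libraries and near the T libraries in its stages, with no elongating spermatid-like cell, and the study left it out of its own tests. It was left out of every vehicle comparison here unless it is named. It did stay in the map of stages, with 2143 pachytene and 2690 round spermatid-like cells, more than any other vehicle library.

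Elongating spermatids were nearly missing from the T libraries and made up most germ cells with a named stage in the R libraries. They made up 66.0%, 61.4% and 63.7% of germ cells in R 1, R 2 and R 3, and 0.019%, 0.055% and 0.18% in T 1, T 2 and T 3. In cells, that was 2800, 2961 and 3920 in the R libraries against 1, 2 and 4 in the T libraries, and the exact binomial interval (Clopper-Pearson, 95%, counting error only) for the T library with the most reached 0.421% of its cells. The groups did not overlap, and 3 libraries against 3 cannot give an exact two-sided permutation p under 0.1, which is the value found here (adjusted p = 0.12 over the 6 germ stages). Leptotene-zygotene spermatocytes, the cells just entering meiosis, were likewise near the limit of detection in the T libraries, with 9, 3 and 4 cells (0.17%, 0.082% and 0.18% of germ cells). The R libraries had 66, 96 and 134 cells (1.55%, 1.99% and 2.18%). VC-T 1, which received no JQ1, was as low as the T libraries, with 4 such cells (0.0745%). The other vehicle libraries had 4.54% and 2.88% (VC-T 2 and VC-T 3) and 1.79%, 1.78% and 1.59% (VC-R).

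Shares of the other main stages were lower in R among germ cells with a named stage. All shares sum to the whole, and the part of this constraint was not tested. Pachytene spermatocytes went from 41.3%, 51.6% and 52.0% of germ cells in the T libraries to 12.7%, 12.0% and 11.0% in the R libraries (mean ± SD 48.3 ± 6.08% against 11.9 ± 0.841%, n = 3). Vehicle libraries had 10.1% and 12.9% (VC-T 2 and VC-T 3) and 15.2%, 11.9% and 12.4% (VC-R), with 39.9% in VC-T 1. Round spermatids were 40.1%, 34.5% and 33.4% under JQ1 and 13.2%, 17.1% and 17.3% after withdrawal. Clusters 9 and 12 of the vehicle map, left without a name for their few UMIs, scored highest for round spermatid markers. Cluster 9 was the nearest for 586, 530 and 1302 R cells and 42, 41 and 51 T cells. For cluster 12 these were 582, 515 and 977 R cells and 74, 35 and 16 T cells. Cells of unnamed clusters are in none of these shares, so the round spermatid share of R leaves out more cells than that of T. Spermatogonia were 6.51%, 7.05% and 8.68% under JQ1 and 1.39%, 1.83% and 1.30% after it. In vehicle mice they were 7.99% and 9.27% in VC-T 2 and VC-T 3, and 0.967%, 3.77% and 2.65% in the VC-R libraries. VC-T 1 had 3.09%. Apart from VC-T 1, the vehicle share of spermatogonia was thus also lower at the later age, without JQ1. For each of these stages R and T did not overlap and the exact permutation p was again 0.1. For round spermatids this holds for cells of named clusters only, and shares with clusters 9 and 12 counted in were not tested. The diplotene and dividing spermatocytes overlapped between groups (12.0%, 6.73% and 5.57% against 5.18%, 5.62% and 4.50%, exact permutation p = 0.2). The spermatogonial difference depended on the depth of the cells that were admitted. It was -5.91 percentage points over all cells and -0.300 points among cells with at least 2000 UMIs. The median spermatogonium held 1581, 1425 and 1281 UMIs in the T libraries against 4282, 2915 and 6568 in the R libraries, and the part of depth in the share was not tested further.

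**Figure D1:**
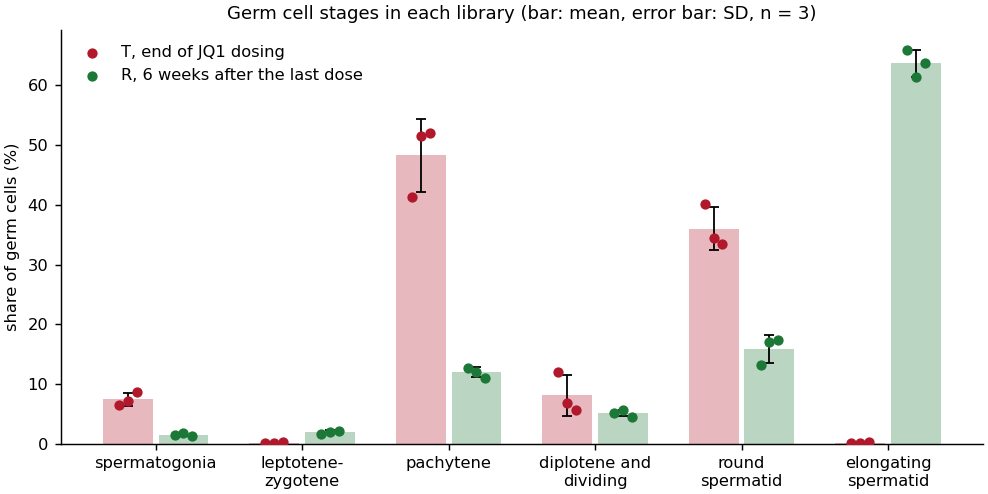
Share of germ cells with a named stage (%, y axis) in each germ cell stage (x axis). There is a point for each library, with bars for the mean and error bars for the SD of 3 libraries. The elongating spermatid bar stands at 63.7% in R and 0.0832% in T, and the pachytene bar at 11.9% in R and 48.3% in T.

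The contrast can also be laid out by position along the map. Position comes from the same nearest vehicle cells that gave the stages, so it is no independent check. Only germ cells with a named stage entered the positions given here. Each germ cell was given a position from 0 to 1, the mean rank of its nearest vehicle cells along the path from spermatogonia to the last elongating cells. Few T cells lay past the round spermatids on this path. The median round spermatid-like cell stood at 0.423, 0.420 and 0.414 in T 1, T 2 and T 3, and at 0.502, 0.488 and 0.471 in R 1, R 2 and R 3, without overlap between the groups. The round spermatids fell into 4 clusters of the vehicle map, of which cluster 11 was the last before elongation. By the most common cluster among the nearest vehicle cells, with no minimum vote, it held 29.2%, 25.5% and 18.6% of the cells of these clusters in the R libraries against 1.29%, 0.395% and 0.523% in the T libraries. Cluster 0, the first, held 7.72%, 8.11% and 11.5% against 29.4%, 29.4% and 39.7%. The first elongating cluster had 313, 394 and 432 cells after withdrawal and 0, 1 and 2 cells under JQ1. Pachytene spermatocytes had nearly the same median position in both groups, 0.134, 0.162 and 0.154 in R and 0.136, 0.142 and 0.130 in T.

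**Figure D2:**
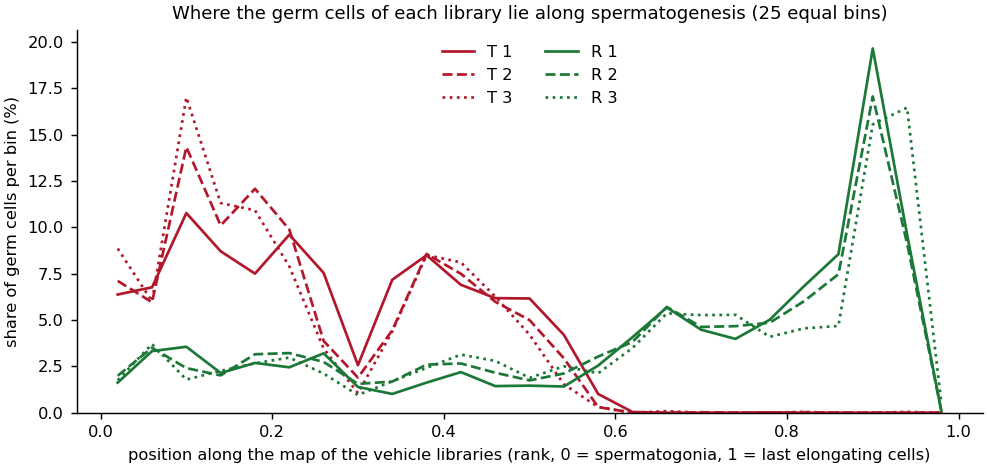
Share of germ cells with a named stage per bin (%, y axis) against position along the map of the vehicle libraries (x axis). Position is a rank from 0 to 1 in 25 equal bins, with a line for each of the 6 libraries. The T lines reach the axis just past 0.6, and the R lines peak near 0.9.

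Cells other than germ cells were also unevenly represented. Sertoli cells, which nurse the germ cells in the tubule, made up 8.71 ± 4.16% of R cells and 0.765 ± 0.655% of T cells (mean ± SD, n = 3). They numbered 401, 481 and 1721 in the R libraries and 40, 5 and 35 in the T libraries. The map has a pair of Sertoli clusters, and cells were also counted by the most common cluster among their nearest vehicle cells, without the minimum vote used for stages. In the R libraries cluster 22 had 405, 477 and 1797 cells against 21, 4 and 3 in T. It is a cluster with a median of 1374 UMIs in vehicle cells whose leading genes are Sertoli genes but which also scored for elongating spermatid markers. The other Sertoli cluster, 13, had 10, 18 and 11 cells in R (0.15%, 0.246% and 0.0863%) and 21, 1 and 32 cells in T (0.38%, 0.0265% and 1.32%), where the groups overlapped. Macrophages numbered 52, 81 and 72 against 2, 0 and 0, while the Leydig cells, which make testosterone, overlapped between groups (26, 44 and 82 cells against 14, 0 and 15, exact permutation p = 0.3 on their shares). Another 26.6 ± 5.05% of R cells and 2.52 ± 0.512% of T cells lay in clusters left without a name, mainly of low UMI counts. The low-UMI clusters 9 and 12 among them scored highest for round spermatid markers, as given above. How many cells of each kind survive dissociation was not measured, so these shares are of captured cells. Pachytene spermatocytes also differed in depth, with median UMI counts of 16317, 13922 and 30586 in R against 5235, 5334 and 3572 in T (exact permutation p = 0.1, adjusted p = 0.2). In diplotene and dividing cells (exact permutation p = 0.7) and in round spermatids (exact permutation p = 0.3) the median UMI counts of the groups overlapped. After every cell was thinned to 1000 UMIs, the pachytene cells of R and T had 767 and 779 genes (medians of the libraries averaged).

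UMIs were then summed for each library and stage, and R was compared with T by edgeR's quasi-likelihood test in the 4 stages with enough cells in every library. A gene is called changed where its Benjamini-Hochberg adjusted p was under 0.05 and its log2 fold change, R over T, was over 1 in size. Levels are given as CPM, the counts of a gene per 1000000 UMIs of a library and stage. The fitted fold changes use TMM scaling, which moved all of them by 0.24 on the log2 scale in round spermatids against the plain ratio of CPM, and by 0.0716 or less in the other stages, so a fold change need not equal the ratio of the levels printed beside it. Fewer or more molecules per cell and a changed mix of cells within a stage cannot be told apart in such sums. In spermatogonia-like cells, 114 of 7408 genes tested (1.54%) were higher in R and 6 (0.081%) were lower. In pachytene spermatocyte-like cells, 488 of 14237 (3.43%) were higher and 212 (1.49%) lower. In diplotene and dividing spermatocyte-like cells, 308 of 9069 (3.4%) were higher and 50 (0.551%) lower. In round spermatid-like cells, 2120 of 14052 (15.1%) were higher and 203 (1.44%) lower, and upper quartile normalization gave 1868 higher and 379 lower. The 4 comparisons use the same 6 mice. With each cell thinned to 1000 UMIs, 212 genes were called in pachytene cells in place of 700, of which 195 were higher and 17 lower, and 1163 in round spermatids in place of 2323.

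Round spermatids had the most calls, and the genes of sperm chromatin packaging were among the higher ones. Prm1 was at 14634, 13072 and 14477 CPM in R 1, R 2 and R 3 and at 478, 102 and 163 CPM in T 1, T 2 and T 3. The 2 sets were far apart, with T 1 the highest of its group, and the log2 fold change was 6.02 ± 0.38 (SE, edgeR adjusted p = 6.6e-10). Prm2 stood at 12393, 10997 and 12176 CPM against 422, 103 and 170.1 (log2 fold change 5.88 ± 0.34). Tnp2, which together with Tnp1 precedes the protamines on sperm DNA, had 10830.4, 9058 and 10749 CPM against 577, 239 and 264 (5.04 ± 0.24), and Tnp1 had 6942, 6163 and 6861 CPM against 869, 462 and 467 (3.7 ± 0.17). VC-T 1, which received no JQ1, was near the T libraries, with Prm1 at 195 CPM, Prm2 at 196, Tnp2 at 335 and Tnp1 at 577. In the other vehicle libraries Prm1 was at 10404 to 19001 CPM. In the list of protamines and transition proteins, 5 of 7 genes were called higher and none lower, where 15.1% of all genes tested were called higher. Hils1, a spermatid linker histone, had 1806, 1721 and 1697 CPM against 1106, 1089 and 1061, and its log2 fold change of 0.92 ± 0.05 missed the size threshold. The histone variants H2al1n and H2al2a, variants of late spermatids, were higher by log2 fold changes of 3.03 ± 0.20 and 3.01 ± 0.15.

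The genes with the smallest adjusted p were less known ones. Ttc24, a gene with tetratricopeptide repeats, went from 2.7, 0.93 and 1.8 CPM in the T libraries to 123, 117 and 135 CPM in the R libraries (log2 fold change 6.20 ± 0.16, adjusted p = 2.0e-13). Yjefn3 (5.54 ± 0.15), Lrrc57 (4.33 ± 0.13), Col20a1 (5.77 ± 0.18), the tubulin-binding Tppp2 (3.30 ± 0.10), Dlgap4 (3.95 ± 0.13) and the serine proteases Prss51 (4.64 ± 0.15) and Prss58 (4.64 ± 0.15) followed. Car2, the carbonic anhydrase 2 gene, had 146, 127 and 147 CPM against 3.4, 0.37 and 1.1. Herpud1, a gene of endoplasmic reticulum protein quality control, had 102, 82.9 and 97.98 CPM against 5.9, 3.9 and 2.9 (4.55 ± 0.16). In every one of these genes each R library was above each T library. VC-T 1 lay below every other vehicle library in each of them. It was at 2.8 CPM of Ttc24, 1.8 of Car2 and 6.3 of Herpud1. The other vehicle libraries were at 104 to 175, 92.4 to 200 and 75.3 to 135 CPM.

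Lists outside sperm structure had calls as well, to be read against the 15.1% of all genes that were higher and the 1.44% that were lower. Of the heat shock list (median log2 fold change -0.21), 5 of 21 genes tested were higher, among them Hsph1 (2.69 ± 0.15) and the testis Hsp70 gene Hspa1l (1.84 ± 0.10), and 2 were lower, the mitochondrial chaperonin pair Hspd1 and Hspe1. Of the somatic glycolysis isoenzymes (median 0.02), 4 of 12 were higher, with Gpi1, which interconverts glucose and fructose phosphates, at 141, 128 and 129.7 CPM against 26.02, 18.4 and 11.7. The cap-binding factor gene Eif4e (2.21 ± 0.09) and the helicase gene Eif4a2 (2.33 ± 0.20) were 2 of the 3 members called higher among 19 genes of mRNA storage and translation, a share close to that of all genes. The AP-1 gene Jund rose by 2.04 ± 0.10 on the log2 scale, and the CREM partner Fhl5 by 1.43 ± 0.07. Crem itself was at 444, 452 and 440.3 CPM against 535, 551 and 528 (log2 fold change -0.03 ± 0.05). Brdt was not called, at 80.7, 95.7 and 90.9 CPM in R and 119, 127 and 128 in T (-0.23 ± 0.07, adjusted p = 0.013). Acrv1 of the acrosome (0.25 ± 0.06) and Gpx4, a selenoenzyme of the sperm mitochondrial capsule (0.28 ± 0.05), stayed under the size threshold. Of 46 genes tested from the list that the study drew up as bound by BRDT in spermatids, 34 were higher and none lower (median log2 fold change 1.33), and since the study chose that list on these samples the count is no independent evidence of its direction.

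The genes lower in R, that is higher at the end of JQ1 dosing, were fewer in round spermatids and changed by less. U2af1, which recognises the 3′ splice site, had 10.4, 11.2 and 10.1 CPM in the R libraries and 37.4, 44.9 and 36.95 CPM in the T libraries (log2 fold change -1.69 ± 0.13, adjusted p = 6.1e-09). Hspd1 had 2.8, 3.04 and 3.6 CPM against 16.8, 20.04 and 14.3 (-2.17 ± 0.19), and its partner Hspe1 had 18.5, 21.3 and 20.7 against 49.9, 54.2 and 43.5 (-1.05 ± 0.11). Zcchc17 (-1.18 ± 0.10), Dmrta2 (-1.68 ± 0.15), Appl1 (-1.26 ± 0.14), Slc9a3r1 (-1.0 ± 0.12) and the nucleolar ribosome-assembly genes Nop56 (-1.79 ± 0.21) and Utp4 (-1.30 ± 0.15) were also lower in R. Serp2, a gene of the endoplasmic reticulum translocon, had 30.7, 32.2 and 26.03 CPM against 64.5, 69.6 and 76.5 (-1.0 ± 0.10). In each of these genes for which levels are given the groups did not overlap. Serp2 and Slc9a3r1 lay at the size threshold and fell just short of it without T 3 (-0.98 and -0.94), Serp2 also without R 3 (-0.89) and Slc9a3r1 without R 1 (-0.98) or R 2 (-0.96). Smarca5, an ISWI remodeller ATPase, stood at 65.4, 66.01 and 69.4 CPM in R and 135, 157 and 164 CPM in T and missed the size threshold (-0.92 ± 0.08, adjusted p = 5.2e-08), which it passed without T 1 (-1.01), with upper quartile normalization (-1.07) and with the low-UMI clusters counted in (-1.15).

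Because the round spermatids of R lay later on the map, R and T were compared again among cells of the same position, with 347 cells drawn from every library so that each had the same number in each of 10 bins of position. The count of calls went from 2323 to 337, with 274 of 10552 genes (2.6%) higher in R and 63 (0.597%) lower. Drawing as many cells at random, without regard to position, left 1673 higher and 184 lower. Of the 1052 genes called higher over all cells that could be tested again, 245 were called at matched position, and their median log2 fold change went from 1.72 to 0.48. Of the 87 lower genes, 25 were called, and their median went from -1.14 to -0.89. Matching on position uses genes that themselves differ between the groups, so it can remove a difference along with the shift in position.

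The protamine genes remained far apart at matched position. Prm1 was at 5252 ± 1444 CPM in R and 326 ± 185 in T (SD, n = 3, log2 fold change 4.03), Prm2 at 4145 ± 1095 and 328 ± 167 (3.69), Tnp2 at 3348 ± 1088 and 462 ± 119 (2.89) and Tnp1 at 2548 ± 650.3 and 688 ± 169 (1.92). Herpud1 (2.69) and Ttc24 (4.44) also kept their calls. Over all its round spermatid-like cells VC-T 1, which received no JQ1, had Prm1 at 195 CPM and Prm2 at 196. Matched values are for R and T only. Hils1, not called over all cells, had 1189.8 ± 82.7 CPM against 1161 ± 23.0 (0.07). Other genes lost their call. Fhl5 had a log2 fold change of 0.06, Jund one of 0.38, and the glycolytic Pkm and the proapoptotic Bcl2l11 turned from 1.47 and 1.48 over all cells to -0.05 and -0.02. Of the study's spermatid list, chosen on these samples, 7 of 44 genes tested were called higher and none lower, where 2.6% of all genes were higher and 0.597% lower.

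**Figure D3:**
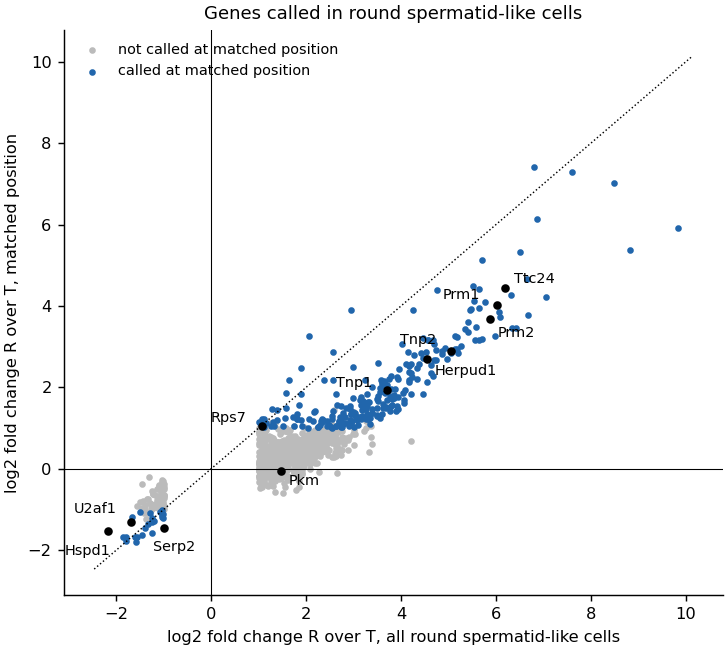
Log2 fold change of R over T at matched position (y axis) against that over all round spermatid-like cells (x axis), for each gene called over all cells and tested in both. Most points lie under the dotted line of equal change on the right, while Rps7 and Serp2 lie at or beyond it.

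Rps7, Rpl7a and Serp2 differed as much at matched position as over all cells. Rps7, which encodes a protein of the small ribosomal subunit, had 1226, 1273 and 1296 CPM in the R libraries and 712, 765 and 672 CPM in the T libraries (log2 fold change 1.06 ± 0.05, adjusted p = 5.6e-11), and 1.05 at matched position. Without T 3 it was 0.99, just under the size threshold. The vehicle libraries had 1239 to 1397 CPM, and VC-T 1, which like the T libraries lacked elongating cells, had 1330. The same direction was measured for Rps7 in pachytene-like cells (0.69 ± 0.07, adjusted p = 4.1e-05) and in diplotene and dividing cells (0.60 ± 0.08, adjusted p = 1.5e-04), where it missed the size threshold. Rpl7a, of the large subunit, went from 102, 78.9 and 67.3 CPM under JQ1 to 182, 190.3 and 192 CPM (1.38 ± 0.10, and 1.43 at matched position). Over all cells 3 of the 82 ribosomal protein genes tested were called higher and none lower, below the 15.1% of all genes that were higher, and the list as a whole made up 4.21 ± 0.0507% of round spermatid UMIs in R and 4.40 ± 0.0325% in T. Ribosomal protein genes have near-identical processed copies in the genome, so that single members are uncertain. On the lower side U2af1 (14.7 ± 1.57 CPM in R, 37.7 ± 2.46 in T, log2 fold change -1.32 in place of -1.69) and Serp2 (26.4 ± 6.35 and 74.4 ± 10.5, -1.45) kept their calls at matched position. In VC-T 1, U2af1 was at 18.4 CPM, and it was at 5.6 to 11.9 CPM in the other vehicle libraries.

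Markers of other cells moved with the groups in round spermatids. Of the 9 Sertoli-function genes tested there, 6 were called higher in R, where 15.1% of all genes were, with Defb19, a beta-defensin of Sertoli cells, at 38.1, 36.9 and 34.7 CPM against 9.02, 2.8 and 10.98, and Aard at 11.1, 10.5 and 11.1 against 2.9, 1.5 and 3.3. The Sertoli-like cells of cluster 22, though not those of cluster 13, were also more frequent in the R libraries, as given above. The part of these cells or of their free RNA in the round spermatid results was not tested.

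In spermatocytes and spermatogonia the genes higher in R were mostly those that elongating spermatids express. Of the calls higher in R, 96.5% in spermatogonia-like, 78.7% in pachytene-like and 63.6% in diplotene and dividing cells had a level over 4 times higher in vehicle elongating cells than in vehicle cells of the stage, a property of 7.21%, 8.25% and 6.95% of all genes tested there. Prm1 was at 4010.0, 3962 and 5787 CPM in R spermatogonia against 171, 34.96 and 75.4 CPM in T, and at 1872, 3269 and 1735 CPM in R pachytene cells against 83.3, 17.9 and 52.9 in T. All 10 late haploid marker genes were tested in each stage. Their summed share of UMIs was 1.13%, 1.16% and 1.61% in R spermatogonia against 0.135%, 0.0564% and 0.0654% in T, and 0.501%, 0.861% and 0.455% in R pachytene cells against 0.0550%, 0.0234% and 0.0380% in T. None of the defining genes Prm1, Prm2, Tnp1 and Tnp2 was at 0 in any library.

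Cells that do not make protamine give the background. The same 10 genes took 5.75%, 5.30% and 5.33% of the UMIs of somatic cells in R 1, R 2 and R 3, and 1.28%, 0.0769% and 0.995% in T 1, T 2 and T 3, the T values resting on 56, 5 and 50 cells. The somatic cells were of different kinds in the groups, since those of R were mostly the Sertoli-like cells of cluster 22. In macrophages, which lie outside that cluster, the share was 2.86%, 3.14% and 1.8% in R 1, R 2 and R 3, at median depths of 1815, 1871 and 3852 UMIs. In Leydig cells it was 2.38%, 1.86% and 4.82% in R and 0.101% and 0.0731% in T 1 and T 3, while T 2 had none of these cells. In every R library the shares in spermatogonia, pachytene and diplotene cells lay below those in macrophages and in Leydig cells. The cells differed in depth, so a lower share of UMIs need not be fewer UMIs per cell, and the part of free RNA in these shares was not tested. In round spermatids the share was 4.56%, 4.05% and 4.47% in R, above that in macrophages of every library and in Leydig cells of R 1 and R 2, and 0.603%, 0.451% and 0.451% in T, and after the subtraction described next the log2 fold change of Prm1 there was 5.88 in place of 6.02. Over the whole R libraries the 10 genes took 10.4% to 11.1% of UMIs, against 0.166% to 0.309% in the T libraries. Taking out of the R sums a share of the library's pooled RNA that brought these genes in the stage with the least of them down to 0 (4.36% to 7.75% of UMIs) left 68 of the 327 higher calls of pachytene cells that could be tested, and 191 of the 212 lower calls. Over all genes it turned the balance in pachytene cells to 78 higher and 829 lower. Nothing was taken out of the T sums, so the subtraction lowers counts in R alone. The lower calls that it left, and the turn to more lower calls, are therefore no test of the lower genes. This subtraction was chosen after the data were seen.

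**Figure D4:**
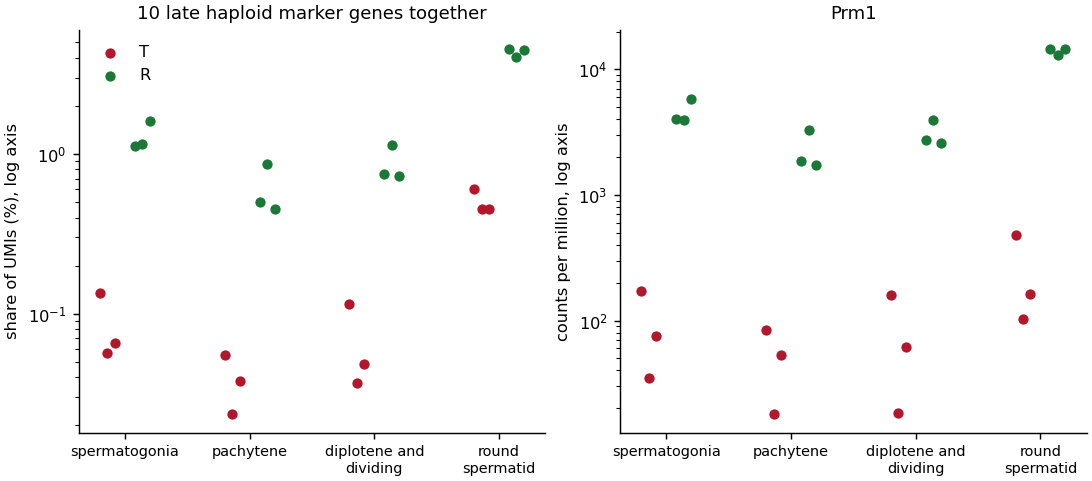
Share of UMIs in 10 late haploid marker genes (left, %, log axis) and CPM of Prm1 (right, log axis) in 4 germ cell stages (x axis), with a point for each library. Every R point lies above every T point of its stage, and the R points of Prm1 in round spermatids run from 13072 to 14634 CPM.

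Pachytene spermatocytes, the cells in which meiotic chromosomes are fully paired, had 212 genes that were lower after withdrawal, and almost none of these was an elongating spermatid gene (0.472%). The count ran from 137 without T 1 to 352 without T 2, was 117 with DESeq2 and 104 with all 15 libraries in the fit, and was 17 with cells thinned to 1000 UMIs. Vmn2r60, a member of the vomeronasal receptor family with many close relatives, had 6.95, 6.5 and 4.95 CPM in the R libraries and 32.4, 27.1 and 30.3 CPM in the T libraries (log2 fold change -2.25 ± 0.14, adjusted p = 3.8e-06). Adgrb3, an adhesion G protein-coupled receptor, had 22.5, 14.8 and 20.7 CPM against 68.7, 60.3 and 70.9 (-1.70 ± 0.12), and Cacna2d1, a calcium channel subunit, 4.1, 3.8 and 6.05 against 23.4, 19.1 and 25.8 (-2.14 ± 0.18). Within each group the libraries lay close together, and the groups did not overlap. With cells thinned, Vmn2r60 (-1.74) and Cacna2d1 (-2.42) were still called, and Adgrb3 (-0.99), Pim3 (-0.85) and Fadd (-1.11) were not. The prosurvival kinase gene Pim3, whose promoter is printed above, had 8.9, 9.9 and 10.9 CPM against 22.8, 22.9 and 23.7 (-1.13 ± 0.12). Prnp had 0.88, 0.92 and 1.05 CPM against 4.5, 4.3 and 5.3 (-2.17 ± 0.25), a low level in both groups. Slc16a6, a monocarboxylate transporter (-2.44 ± 0.27), the sulfotransferase gene Sult5a1 (-1.55 ± 0.17), the death receptor adaptor gene Fadd (-1.20 ± 0.14), the cytosolic isocitrate dehydrogenase gene Idh1 (-1.37 ± 0.16) and the ephrin receptor gene Epha3 (-1.38 ± 0.16) complete the 10 with the smallest adjusted p. Of the 9 of these 10 genes with a promoter in the table, the CG count ran from 2 to 36 with a median of 17, and 5 were above the upper quartile of all promoters.

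Vehicle libraries supply a further reading of these genes. In the 5 vehicle libraries other than VC-T 1, Vmn2r60 was at 4.8 to 9.9 CPM and Adgrb3 at 13.7 to 26.01 CPM, near the R libraries. VC-T 1 was at 6.9 CPM of Vmn2r60 and 25.6 CPM of Adgrb3. Some other genes of the set were higher in VC-T 1 than in the other vehicle libraries, though below every T library. Pim3 was at 19.8 CPM there against 9.3 to 14.3, Cacna2d1 at 7.9 against 1.7 to 6.0 and Fadd at 8.4 against 4.6 to 6.4. Slc16a6 was at 2.7 against 0.43 to 1.9 and Prnp at 1.5 against 0.81 to 1.4. Idh1, Sult5a1 and Epha3 in VC-T 1 lay within the range of the other vehicle libraries. The lower genes were tested again at the same position. At matched position, with 475 cells from each library, 88 of the 114 that could be tested were called, with Vmn2r60 at a log2 fold change of -2.27 and Pim3 at -1.10.

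**Figure D5:**
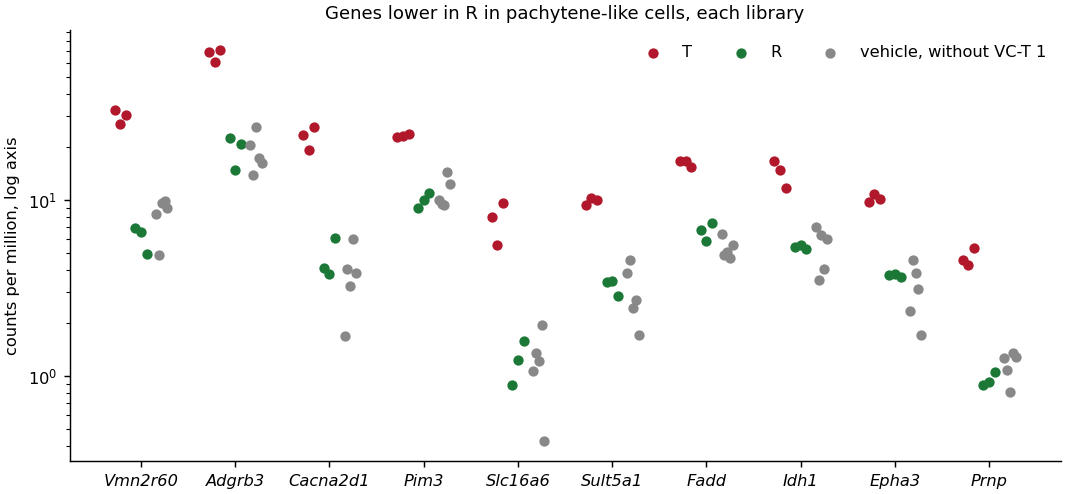
CPM (y axis, log axis) of the 10 genes with the smallest adjusted p among those lower in R in pachytene-like cells (x axis), with a point for each T, R and vehicle library. For each gene every T point lies above every R point, and for Vmn2r60 the vehicle points run from 4.8 to 9.9.

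Genes of the meiotic programme had no calls in pachytene cells. None of 15 synaptonemal complex and axis genes, 22 recombination genes, 21 meiotic division genes or 19 piRNA pathway genes was called in either direction, and with 3.43% of all genes higher and 1.49% lower, few calls or none would be found in lists of this size at the share of all genes. Sycp3, of the chromosome axis, had 446, 429 and 444 CPM in R and 494, 446 and 481 CPM in T (-0.03 ± 0.05), Sycp1, of the transverse filament, a log2 fold change of -0.20 ± 0.07 (adjusted p = 0.066), and Hormad1 one of -0.20 ± 0.05 (adjusted p = 0.024). The piRNA-binding Piwil1 was at 0.17 ± 0.06 (adjusted p = 0.098). Brdt, the target in the testis, had 238, 213 and 226 CPM in R and 269.9, 256 and 278 CPM in T (-0.17 ± 0.05, adjusted p = 0.044), and was not called. None of the 7 genes of P-TEFb and 7SK was called, including Hexim1, at 7.7, 7.3 and 8.0 CPM against 9.9, 11.6 and 11.2 (-0.42 ± 0.14, adjusted p = 0.059). The testis linker histone gene Hist1h1t was at 256, 193 and 188 CPM against 165, 141 and 173 (0.49 ± 0.10). A few list members did pass in the lower direction, namely the ubiquitin hydrolase gene Uchl1 of spermatogonia (-1.04 ± 0.12, and -0.95 without R 2), the proapoptotic Pmaip1 (-1.95 ± 0.32), the testis TFIID subunit gene Taf7l (-1.79 ± 0.37) and Pgf (-1.35 ± 0.17).

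The genes with the smallest adjusted p on the higher side of pachytene cells were Yjefn3, Prm1, Acte1, Car2, Tnp2, Prm2, Nudt16l2, Tex46, Lelp1 and Tppp2. Yjefn3 had 13.7, 18.7 and 13.2 CPM in R and 1.7, 1.2 and 1.3 CPM in T (log2 fold change 3.49 ± 0.23), Lelp1 had 41.8, 57.5 and 36.8 against 9.04, 4.7 and 6.6 (2.79 ± 0.21), and Tppp2 had 30.03, 49.2 and 27.8 against 3.7, 1.4 and 2.1 (3.90 ± 0.30). R 2 was the highest library for each of these, as it was for the late haploid share. After subtraction, Yjefn3 (2.21) and Prm1 (1.97) were still called higher, Tppp2 (0.81) was no longer called, and Tnp1 (-1.18), Lelp1 (-2.36), Prm2 (-11.7) and Tnp2 (-11.9) changed sign. The subtraction is scaled to bring the late haploid genes to 0, so values of these genes after it follow from its construction.

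In diplotene and dividing spermatocytes, 88 of the 252 higher calls that could be tested were still called after subtraction. Prm2 was at 2027, 3505 and 2019 CPM against 119, 18.3 and 42.98. Tfam, a mitochondrial DNA-binding factor that has a testis form, had 42.2, 43.3 and 40.2 CPM against 6.2, 2.3 and 0. On the lower side stood Pcbp1, an RNA-binding protein gene, with 42.2, 39.8 and 48.7 CPM against 96.1, 99.3 and 132 (-1.21 ± 0.17), the ephrin receptor gene Epha7 (-1.75 ± 0.26), U2af1 with 28.7, 31.4 and 31.3 CPM against 77.6, 58.2 and 82.9 (-1.20 ± 0.18), Idh1 with 7.6, 3.5 and 5.03 against 23.3, 21.7 and 36.8 (-2.22 ± 0.34) and Tmem37 (-1.36 ± 0.24). The groups did not overlap for any of these 5. The count of calls in this stage rested on single libraries, since it was 756 without T 1 and 202 without R 2, against 358 with all 6. U2af1 and Pcbp1 were not called among 84 cells of matched position from each library (log2 fold changes of -0.95 and -0.50, adjusted p = 0.056 and 0.30).

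In spermatogonia, 25 of the 83 higher calls that could be tested were still called after subtraction. The 5 named genes on the higher side were Prm2, Prm1, Tnp2, Tnp1 and the spermatid kinase gene Tssk6, which had 158, 176 and 175 CPM in R and 12.7, 11.7 and 10.3 CPM in T. The lower side held 6 genes, of which 4 have a name other than a clone or model number. It depended on the map of stages, since stages from clusters of all libraries gave 126 genes higher and 108 lower. Exoc1, of the exocyst, had 36.9, 28.4 and 23.8 CPM against 111, 97.9 and 71.96 (-1.72 ± 0.28, adjusted p = 8.5e-04). Ttl, the tubulin tyrosine ligase gene, had 3.4, 11.4 and 3.4 CPM against 60.1, 39.6 and 34.3 (-2.95 ± 0.50). Vps26c (-1.45 ± 0.34) and Gskip (-1.26 ± 0.30) each had an adjusted p of 0.025, and both lost the call without R 1, R 2 or R 3 (adjusted p of up to 0.19 and 0.12), Vps26c also without T 1 and Gskip without T 2. None of 13 spermatogonial genes was called, where 1.54% of all genes were higher and 0.081% lower, so a list of this size would hold no call at that share. Uchl1 was at 537, 508 and 535 CPM against 614, 708 and 555, and the RNA-binding Dazl at 746, 758 and 769.7 CPM against 578, 718 and 750.4. Stra8, which starts meiosis, was at 0.22 ± 0.15 on the log2 scale. With 59 to 88 spermatogonia per R library, the precision here is lower than in the other stages. The total of calls was 120, and 225 without T 1 or 56 without R 3.

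The X chromosome, silenced in pachytene and partly expressed again in spermatids, took a larger share of UMIs after withdrawal in round spermatids. The share was 1.45%, 1.44% and 1.43% in the R libraries against 1.25%, 1.19% and 1.19% in the T libraries (exact permutation p = 0.1). In pachytene cells it was 0.0880%, 0.121% and 0.0928% against 0.110%, 0.0630% and 0.0815%, and the groups overlapped. In diplotene and dividing cells it was 0.357%, 0.394% and 0.387% against 0.343%, 0.229% and 0.177%, without overlap (exact permutation p = 0.1). The part of position in these differences was not tested.

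The change over the same 6 wk was also measured in vehicle mice. VC-R against VC-T without VC-T 1, with 3 libraries against 2, gave 1 of 7139 genes higher (0.014%) and none lower in spermatogonia and 0 genes in the other 3 stages by edgeR's quasi-likelihood test, with 1149 of 12040, 131 of 6627 and 1376 of 12769 genes at an unadjusted p under 0.05 in pachytene, diplotene and dividing, and round cells. The difference between the step under JQ1 and the step under vehicle was tested as an interaction. It gave 60 of 8416 genes higher (0.713%) and 3 lower (0.0356%) in spermatogonia, and 111 of 13021 higher (0.852%) and 107 lower (0.822%) in pachytene cells. Diplotene and dividing cells had 43 of 8819 higher (0.488%) and none lower, and round spermatids had 2512 of 14512 higher (17.3%) and 475 lower (3.27%). With VC-T 1 included these came to 18, 5, 0 and 0 genes, with 624 and 3310 at an unadjusted p under 0.05 in the last 2 stages. In pachytene cells Vmn2r60 (interaction log2 fold change -2.69, adjusted p = 5.1e-04) kept its call with VC-T 1 (adjusted p = 1.9e-04), as did Adgrb3 (-1.86, adjusted p = 0.0033, and 0.041 with VC-T 1). Rps7 in round spermatids had an interaction of 1.07 (adjusted p = 1.2e-07), with an adjusted p of 0.057 once VC-T 1 was included. The Rps7 level of VC-T 1 itself (1330 CPM) was within the range of the other vehicle libraries (1239 to 1397 CPM). The design has no vehicle library of the T age with a full set of stages beyond VC-T 2 and VC-T 3, which limits how far age can be set aside.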

How the data were processed

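The deposited files hold counts, namely UMI counts per gene and cell barcode, which the authors made with Cell Ranger from 10x 3′ libraries aligned to mm10. Per the submitters' processing notes this was version 3.0.0, while the file headers name version 7.0.0, and whether intronic reads were counted is not given in the sources used here. The counts carry no correction for free RNA or doublets, and the counting error of a gene falls with the UMIs of its stage, from 9673587 to 98724982 UMIs per library in all.

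Cells were filtered as stated above, and 5.4% per library with the highest simulated-doublet scores were removed. The 6 vehicle libraries were clustered (scanpy 1.11.5, 2000 variable genes, 30 components, 20 neighbours, Leiden resolution 1.2) and named by marker genes. The rules that leave clusters of low UMI count, or of 1 library, without a name were set after the data were seen. Other cells took the stage held by at least 12 of their 20 nearest vehicle cells. UMIs were summed per library and stage (at least 10 cells in each library) and tested with edgeR 4.0.16 (glmQLFit and glmQLFTest, TMM, filterByExpr), with DESeq2 1.42.0 as an alternative. The edgeR test was also tried on counts simulated from the levels in the R and T libraries, and no result of that trial is used here. For shares, a two-sided permutation test over libraries was enumerated in full (exact). Named genes were, per stage and direction, the 10 changed genes with the smallest adjusted p in pachytene and round cells and the 5 in the other stages, without clone or model names, together with up to 4 members of each of 38 gene lists and a few fixed genes, and from these the text names a part. The comparison, the lists and the named genes were chosen with earlier results of these data known. The mouse is the replicate, and replicate numbers shared between groups did not pair the libraries. An estimate of free RNA from somatic cells, planned as an alternative, was not run, because it reached 100% in T 1 and T 3. The late haploid subtraction took its place.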

Additional observations from a re-analysis of the deposited data

Results flagged for a closer look

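The change from T to R differed from the change over the same weeks in vehicle mice, by an interaction term without VC-T 1. This held for 60 genes higher and 3 lower in spermatogonia-like cells, for 111 higher and 107 lower in pachytene-like cells, for 43 higher in diplotene and dividing cells, and for 2512 higher and 475 lower in round spermatid-like cells. With VC-T 1 included it held for 18 genes higher in spermatogonia-like cells and for 3 higher and 2 lower in pachytene-like cells. In diplotene and dividing cells and in round spermatid-like cells it then held for 0 genes. Among the named genes, 7 kept this call when VC-T 1 was included. In pachytene-like cells they were Vmn2r60 (interaction log2 fold change -2.69) and Adgrb3 (-1.86). In spermatogonia-like cells they were Prm1 (6.02), Prm2 (5.79), Tnp2 (4.65), Tnp1 (3.91) and Tssk6 (3.9998), all genes of late haploid cells, which were frequent in the R libraries and nearly missing from the T libraries and VC-T 1.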

How the results depend on the processing

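In spermatogonia-like cells, 120 genes were called. The count was 231 without the filter on low counts, 240 without doublet removal, 234 with stages from clusters of all libraries, 43 with at least 2000 UMIs per cell, 33 at matched position, 47 with as many cells drawn at random, 29 after subtraction of free RNA and 65 with cells thinned to 1000 UMIs, and it ran from 56 to 225 with 1 library left out. In diplotene and dividing cells the 358 calls became 178 with DESeq2, 228 with all 15 libraries in the fit, 184 with at least 2000 UMIs, 90 at matched position, 184 with cells drawn at random and 124 after subtraction, and 202 to 756 with 1 library left out. In pachytene cells thinning gave 212 calls in all (195 higher and 17 lower), and subtraction, made in R alone, gave 78 higher and 829 lower. In round spermatids the 2323 became 337 at matched position, 1429 with joint clusters, 3496 with the low-UMI clusters counted in and 1163 after thinning. The numbers of the replicates did not pair the libraries (correlations of same-numbered deviations -0.24 to 0.07), and a replicate block gave 84, 568, 216 and 2408 calls in spermatogonia, pachytene, diplotene and round cells.

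With VC-T 1 included, the vehicle step in spermatogonia gave 0 genes, and the interaction 18, 5, 0 and 0. With at least 2000 UMIs per cell the shares, R minus T, were -0.300 points for spermatogonia, -42.7 for pachytene spermatocyte-like and 66.4 for elongating cells, and 3.39 for Sertoli and 0.705 for Leydig cells, and joint clusters gave 1.25 for myoid cells. Of the named genes called over all cells, 7 changed sign. They were Pkm (-0.046), Bcl2l11 (-0.021) and Actl9 (-0.020) at matched position in round spermatids, and Tnp2 (-11.9), Prm2 (-11.7), Lelp1 (-2.36) and Tnp1 (-1.18) after subtraction in pachytene cells. The cause was not tested for any of these, apart from fewer cells or UMIs where the alternative itself removes them. Of the other values, 2401 of named genes were on the same side of the threshold, 93 were no longer past it and 4 were newly past it. The main results were judged by size instead. A count of genes was taken as the same within a set ratio of the main count, and a share within the SD between libraries. By this rule 203 of the main results were the same, and 25 counts were smaller and 6 larger. Another 6 of the main results, all shares, moved by more than the spread between libraries. Genes that were not called were judged by the threshold alone, and their direction could turn. Brd2 in round spermatids was at -0.31 over all cells, and at 150 CPM in R and 138 in T at matched position.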
